A study of Drosophila melanogaster with 2 samples.

Results

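Genes for translation initiation and elongation factors were taken as the protein-coding genes whose Ensembl symbol starts with eIF or eEF. The rule found 52 of the 13945 protein-coding genes on the 6 chromosome arms analysed, 44 of them for initiation factors and 8 for elongation factors. All 52 also carry an initiation or elongation factor description in RefSeq. The data are ChIP-seq peak lists of CG15269, recovered through an eGFP tag. The single group held whole Drosophila melanogaster embryos of mixed sex, aged 6 to 18 h by the source name (the age field holds another value), from a line that carries a transgene of CG15269 with GFP at its C-terminus. Per the labels the precipitation used an antibody against GFP, although the antibody field names CG15269, and there were 2 biological replicates, numbered 2 and 3. No embryos without the transgene or of another genotype are among the samples, and the control alignments named in the labels were not analysed here. The peaks come from all cells of the embryo together, so a site used in few cells and a weak site in all cells cannot be told apart. Peak lists hold no expression values, so the labelled stage could not be set against markers.

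Translation of a messenger RNA starts when the small ribosomal subunit, loaded with initiator tRNA by eIF2 and held together with eIF1, eIF1A, eIF3 and eIF5, is brought to the capped end of the message by the cap-binding protein eIF4E, the scaffold eIF4G and the helicase eIF4A. eIF2B reloads eIF2 with GTP, eIF5B joins the large subunit at the start codon, and eEF1 and eEF2 then deliver aminoacyl-tRNAs and move the ribosome along the message. Many of these factors are made in large amounts in growing cells, and in flies and humans several of their genes share the pyrimidine-rich TCT start site of ribosomal protein genes.

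Sites at 3 of the factor genes are shown first by their sequence at the summit, which is the position in a peak that the authors' list marks as its highest point. The base runs below are from the RefSeq genome of release 6 (dm6), counted from 1, written 5′ to 3′ on the strand of the factor gene. The first is shown because it lies under the strongest summit of any factor gene. The next is shown because it holds the DNA replication-related element (DRE), an 8-base word read by the factor DREF. The last is shown because it carries none of the words searched around summits and lies farthest from its gene. The eIF4EHP run is chr3R:24109160-24109260 on the minus strand, with capitals on the TATA word TATAAA and on its reverse complement TTTATA. The eEF1gamma run is chr3R:29220087-29220171 on the plus strand, which stops at the base before the transcript start, with capitals on the DRE. The eIF2beta run is chr3L:12526991-12527091 on the minus strand and has no capitals. It does hold the letters TCAGT of the common initiator, which were searched only around TSSs.
eIF4EHP: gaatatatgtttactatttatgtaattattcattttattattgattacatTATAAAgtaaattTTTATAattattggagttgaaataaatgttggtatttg
eEF1gamma: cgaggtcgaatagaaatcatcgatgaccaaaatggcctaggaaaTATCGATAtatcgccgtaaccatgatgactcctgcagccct
eIF2beta: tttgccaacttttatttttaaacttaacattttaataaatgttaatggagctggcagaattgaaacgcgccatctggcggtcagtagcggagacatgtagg
The eIF4EHP run is 84.2% A+T, with an unbroken stretch of 18 A or T bases, against 54.1% A+T in the eEF1gamma run and 61.4% in the eIF2beta run.

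A gene was counted as bound when a summit lay within 500 bp of any of its annotated transcription start sites (TSSs). In the authors' list of peaks reproducible by the irreproducible discovery rate (IDR), 14 of the 52 factor genes were bound, or 26.9% (exact Clopper-Pearson 95% interval 15.6 to 41.0%), against 20.6% of all protein-coding genes (2876 of 13945). The members' share is thus near the background, whose value lies inside their interval. Such intervals cover counting error only, and genes are not biological replicates. The same holds in the longer list called on both replicates together, here the pooled list, where 16 of 52 factor genes were bound, or 30.8% (interval 18.7 to 45.1%), against 36.3% of all protein-coding genes. The 7029 strongest peaks of each replicate gave 14 of 52 in replicate 2 (26.9%, against 20.8% of all protein-coding genes) and 13 of 52 in replicate 3 (25%, against 21.8%). The pooled list added few factor genes: of the 38 without an IDR summit, 2 had a pooled one (5.26%, interval 0.644 to 17.7%), against 19.7% of the 11069 protein-coding genes without an IDR summit. Another 6 factor genes had a summit only in a list called on 1 replicate, and 30 had none in any of the 4 lists. For scale, 66 of 92 cytoplasmic ribosomal protein genes (71.7%) and 24 of 73 mitochondrial ribosomal protein genes (32.9%) were bound in the IDR list.

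**Figure D1:**
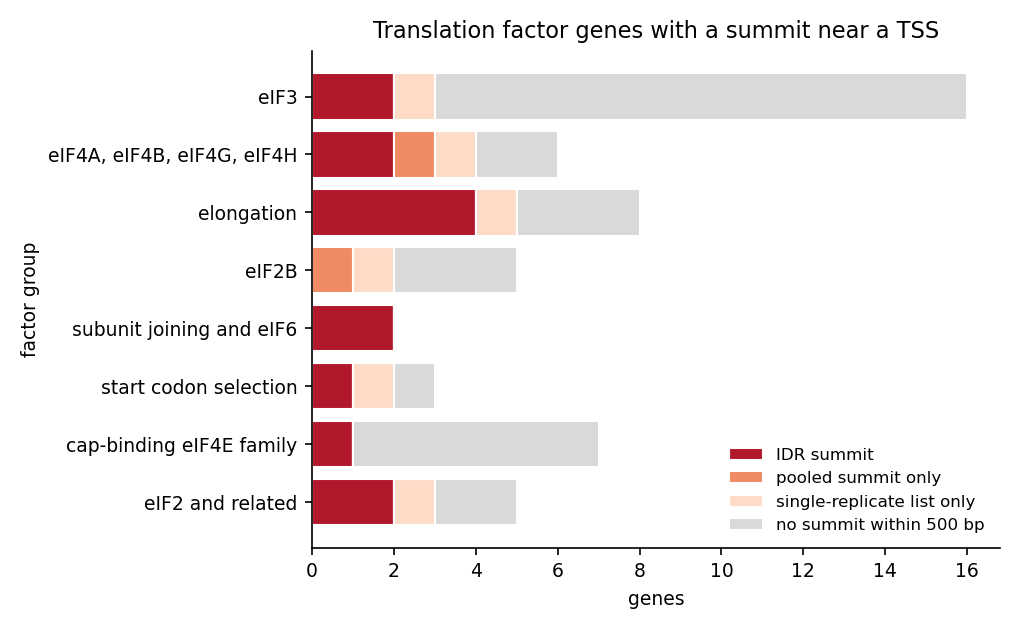
Number of translation factor genes (x axis) in each factor group (y axis), split by the list in which a summit lay within 500 bp of a TSS. An IDR summit lay at both genes of the group with eIF5B and eIF6, 4 of 8 elongation factor genes, 2 of 16 eIF3 genes and none of the 5 eIF2B genes, beside 20.6% of all protein-coding genes; differences between these small groups were not tested.

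By role, initiation factor genes were bound in 10 of 44 cases (22.7%, interval 11.5 to 37.8%) and elongation factor genes in 4 of 8 (50%, interval 15.7 to 84.3%), and both intervals hold the 20.6% of all protein-coding genes. The bound factor genes lay on 2L (3 of 5), 2R (4 of 13), 3L (4 of 11) and 3R (3 of 15). None of the 7 factor genes on X and not the single one on chromosome 4 were bound. Of all protein-coding genes, 20.3% were bound on 2L, 19.0% on 2R, 22.7% on 3L, 20.3% on 3R, 21.5% on X and 5% on chromosome 4, and differences between arms were not tested for so few factor genes.

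eIF1, eIF1A and eIF5 act in start codon selection. Of their 3 genes 1 was bound, that of eIF1, beside 20.6% of all protein-coding genes. eIF1, which keeps the scanning ribosome from stopping at wrong codons, had an IDR peak on 3L (start 3223138, end 3223377) whose summit (3223241) was intergenic and 100 bp upstream of its only TSS. Its signal was 320, rank 3104 of the 7029 IDR peaks, where the signal is the authors' own number for each peak, whose scale the files and labels do not state. This summit also lay 281 bp upstream of RpL28, a ribosomal protein gene that is transcribed away from eIF1 from a start 381 bp off. The replicates placed their strongest peaks here elsewhere. Replicate 2 had its higher summit 351 bp upstream of eIF1 (signal 304, rank 1317) and a weak one at 137 bp upstream (65.4, rank 9399). Replicate 3 had a summit 313 bp upstream (414, rank 944) and another at 111 bp upstream (277, rank 1699). Both replicates therefore gave a stronger summit in the RpL28 side of the interval, and neither the pooled nor the IDR list has a summit there. eIF5, the GTPase-activating protein of eIF2, had only a weak summit of replicate 2 (signal 37.4, rank 17387), 384 bp into the gene. eIF1A, the partner of eIF1, had none near a TSS and a weak pooled summit 2229 bp into the gene (35.5, rank 29422).

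Of the genes for eIF2 and the proteins related to it by function, 2 of 5 were bound, beside 20.6% of all protein-coding genes. eIF2beta, a subunit of the trimer that carries initiator tRNA, had an intergenic peak on 3L (12526963 to 12527097, summit 12527041, signal 308, rank 3238), 310 bp upstream of its TSS and farther from it than any other bound member's. It ranked 2475 in replicate 2 and 4615 in replicate 3. The genes of the other trimer subunits, eIF2alpha and eIF2gamma, had no summit within 500 bp in any list, and their nearest IDR summits lay 20290 and 11929 bp away. eIF2A, named for a role in tRNA delivery known from yeast and mammals, had the weakest bound TSS of all members. Its peak on 3L (21824741 to 21825150, summit 21824946, signal 170, rank 6339) lay in the 5′ UTR, 19 bp upstream of the inner of 2 TSSs. Replicate 2 ranked that peak 5186 and replicate 3 ranked it 8902. eIF2D, known from mammals as a factor of reinitiation and ribosome recycling, showed the opposite case: replicate 3 had a summit 133 bp upstream of its TSS (signal 159, rank 3383), while replicate 2 and the pooled list had none closer than 1626 and 1629 bp.

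None of the 5 genes of eIF2B, the exchange factor that reactivates eIF2 and is the target of the integrated stress response, had an IDR summit within the window. Of all protein-coding genes 20.6% had one. eIF2Bdelta had a pooled summit 137 bp upstream of a TSS at the foot of the list (signal 35.6, rank 29324 of 30000, -log10 q 0.36). eIF2Bgamma had faint summits in both single-replicate lists, 12 bp upstream in replicate 2 (39.9, rank 16269) and 76 bp upstream in replicate 3 (24.6, rank 23927). It also had a stronger one in each, 1256 bp upstream in replicate 2 (133, rank 4034) and 1283 bp upstream in replicate 3 (174, rank 3069), for which no pooled summit exists. eIF2Balpha and eIF2Bepsilon had no summit in any list within 500 bp. eIF2Bbeta lay beside one of the strongest peaks of the genome without counting as bound. That peak on X (2703660 to 2704129, summit 2703889, signal 7318, rank 4) lay 682 bp upstream of eIF2Bbeta and 37 bp upstream of Ugalt, which encodes a transporter of UDP-galactose and whose start faces that of eIF2Bbeta at a distance of 719 bp. The replicates ranked it 3 and 6 in their lists.

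eIF3, the largest initiation factor, has the most genes, and 2 of 16 were bound, set beside the 20.6% of all protein-coding genes. eIF3h had 2 IDR summits on 2L, both inside the gene. The stronger (5052316 to 5052591, summit 5052488, signal 671, rank 1196) lay in an intron 292 bp downstream of the inner of 2 TSSs, and ranked 976 in replicate 2 and 1457 in replicate 3. The weaker (5052486 to 5052895, summit 5052691, signal 188, rank 5695) lay in coding sequence 89 bp downstream of the same TSS. The weaker one rests mainly on replicate 3, where it ranked 4334, against 17328 in replicate 2. Both also fell within 500 bp of the start of senju, which faces eIF3h at 63 bp. eIF3m had an intergenic peak on 2R (14164906 to 14165011, summit 14164959, signal 304, rank 3288), 134 bp upstream of its TSS and 92 bp upstream of the opposed CG8323. Replicate 3 held a stronger peak 8 bp upstream of eIF3m (156, rank 3477) beside the one matched to the IDR summit (104, rank 5431). The summit of that matched peak lay 75 bp from the IDR summit. Of the others, eIF3b had a weak summit of replicate 3 (40.0, rank 14715), 354 bp upstream. That summit lay nearer to the start of Patronin, which faces eIF3b at 347 bp. The genes eIF3a, eIF3c, eIF3d1, eIF3d2, eIF3e, eIF3f1, eIF3f2, eIF3g1, eIF3g2, eIF3i, eIF3j, eIF3k and eIF3l had none in any list. Both genes of each paralogue pair within eIF3, d1 with d2, f1 with f2 and g1 with g2, were thus without an IDR summit. Summits beyond the window lay nearer to other genes: an IDR summit 1323 bp upstream of eIF3d1 (signal 1394, rank 348) was 179 bp upstream of GILT2, and one 1343 bp downstream of the eIF3g1 start (582, rank 1455) was 117 bp upstream of Smyd3.

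In the cap-binding eIF4E family 1 gene of 7 was bound, beside 20.6% of all protein-coding genes, and its peak had the highest signal at any factor gene. eIF4EHP, a cap-binding protein that does not bind eIF4G and represses translation, among others of caudal with Bicoid in the early embryo, had a peak on 3R (24108910 to 24109428, summit 24109210) with a signal of 4499, rank 20 of the IDR list. It was the sixteenth strongest of the 2876 bound genes, so 99.4% were weaker. Replicate 2 gave it rank 25 (signal 2117) and replicate 3 rank 15 (signal 2397). The summit lay 250 bp upstream of eIF4EHP in the 376 bp between it and the opposed gene CG18428, and nearer to CG18428 (126 bp upstream). The peak therefore cannot be assigned to 1 of the 2 genes from position alone, and eIF4EHP did not count as bound with a window of 200 bp or with 1 gene per peak. The other members of the family, eIF4E1 with 4 TSSs and eIF4E3, eIF4E4, eIF4E5, eIF4E6 and eIF4E7 with 1 each, had no summit within 500 bp in any list. Their nearest IDR summits lay 4462 bp (eIF4E1) to 42403 bp (eIF4E3) away.

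Of the other factors of the cap complex, 2 of 6 genes were bound, eIF4A and eIF4G2, beside 20.6% of all protein-coding genes. eIF4A, the RNA helicase that unwinds the leader of the message, has 3 TSSs and an IDR peak on 2L (5982273 to 5982682, summit 5982478, signal 241, rank 4357) in its 5′ UTR, 115 bp downstream of the middle TSS. It lies almost midway to the last TSS, so the doubt of 1 bp in summit positions could turn its sign, and the replicate 2 summit was 111 bp upstream of the last TSS. The pooled list added summits 88 bp upstream (signal 83.8, rank 13398) and 136 bp downstream (41.6, rank 25799) of the first TSS and 83 bp downstream of the last (60.6, rank 18289). Their -log10 q-values were 1.57, 0.477 and 0.921, in that order. These were weak calls below the IDR threshold, so they do not establish that the gene is marked at several starts. eIF4G2, a scaffold paralogue that flies need in the male germ line, had a peak on 3R (23819027 to 23819436, summit 23819232, signal 191, rank 5589) in its 5′ UTR, 5 bp downstream of a TSS that it shares with CG33111. It ranked 3960 in replicate 2 and 8548 in replicate 3. eIF4G1, the general scaffold on chromosome 4, had no summit near it, and its nearest IDR summit lay 96583 bp away. eIF4H2 had a pooled summit 155 bp upstream with a signal of 38.7 (rank 27429, -log10 q 0.416), eIF4B had a faint one in replicate 3 (24.4, rank 24083), and eIF4H1 had none.

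Both remaining initiation genes were bound, beside 20.6% of all protein-coding genes, and eIF6 strongly. eIF6, which binds the large subunit and keeps it from joining too early, had a peak on 2R (23850193 to 23850593, summit 23850416) with a signal of 3383, rank 44. It was stronger than 98.6% of bound genes, and ranked 35 in replicate 2 and 62 in replicate 3. The summit lay 115 bp upstream of its only TSS, inside an exon of the antisense RNA gene asRNA:CR45928, and within 500 bp of no other protein-coding gene. eIF5B, the GTPase that joins the subunits, had a peak on 3L (3460567 to 3460915, summit 3460746, signal 732, rank 1039) in its own 5′ UTR, 143 bp upstream of the inner of 2 TSSs. It ranked 1122 in replicate 2 and 1030 in replicate 3, and was stronger than 73.7% of bound genes.

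Among elongation factor genes, 4 of 8 were bound, beside 20.6% of all protein-coding genes. eEF1gamma, a structural subunit of the exchange complex of eEF1, had an intergenic peak on 3R (29219935 to 29220305, summit 29220137, signal 1065, rank 581), 35 bp upstream of the first of 2 TSSs. Its replicates ranked it 575 and 580. eEF2, the translocase, had a peak on 2L (21682040 to 21682260, summit 21682121, signal 456, rank 2018) 5 bp upstream of the inner of its 2 TSSs, in the 5′ UTR of the longer form. It ranked 1878 in replicate 2 and 2172 in replicate 3. Both lay above the median signal of all bound genes, and the other bound elongation factor genes below it.

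eEF1alpha1, the main carrier of aminoacyl-tRNA, had 2 IDR summits on 2R, each close upstream of another of its 4 TSSs. One (11891923 to 11892153, summit 11892042, signal 346, rank 2849) lay in an intron 80 bp upstream of a TSS. The other (11891002 to 11891103, summit 11891059, signal 314, rank 3161) lay 76 bp upstream of the first TSS and 80 bp upstream of the opposed gene ERp60, a protein disulfide isomerase gene. Pooled summits of 114, 104 and 59.8 lay 199 bp upstream, 126 bp downstream and 125 bp downstream of its TSSs. IDR summits of 508 and 626 lay farther off, 1190 and 1458 bp upstream. Both of these IDR summits lay past the ERp60 start, which is 156 bp from that of eEF1alpha1, and so nearer to ERp60. eEF5, the hypusine-bearing factor also called eIF5A, had a peak on 2R (24057601 to 24058010, summit 24057806, signal 301, rank 3340) 8 bp downstream of a TSS. It ranked 3412 in replicate 2 and 3615 in replicate 3. The paralogue eEF1alpha2 had no summit in any list, with the nearest IDR summit 4541 bp away, and eEF1beta and the selenocysteine factor eEFSec had none. eEF1delta had only a faint summit of replicate 3 (24.7, rank 23856), 399 bp upstream.

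**Figure D2:**
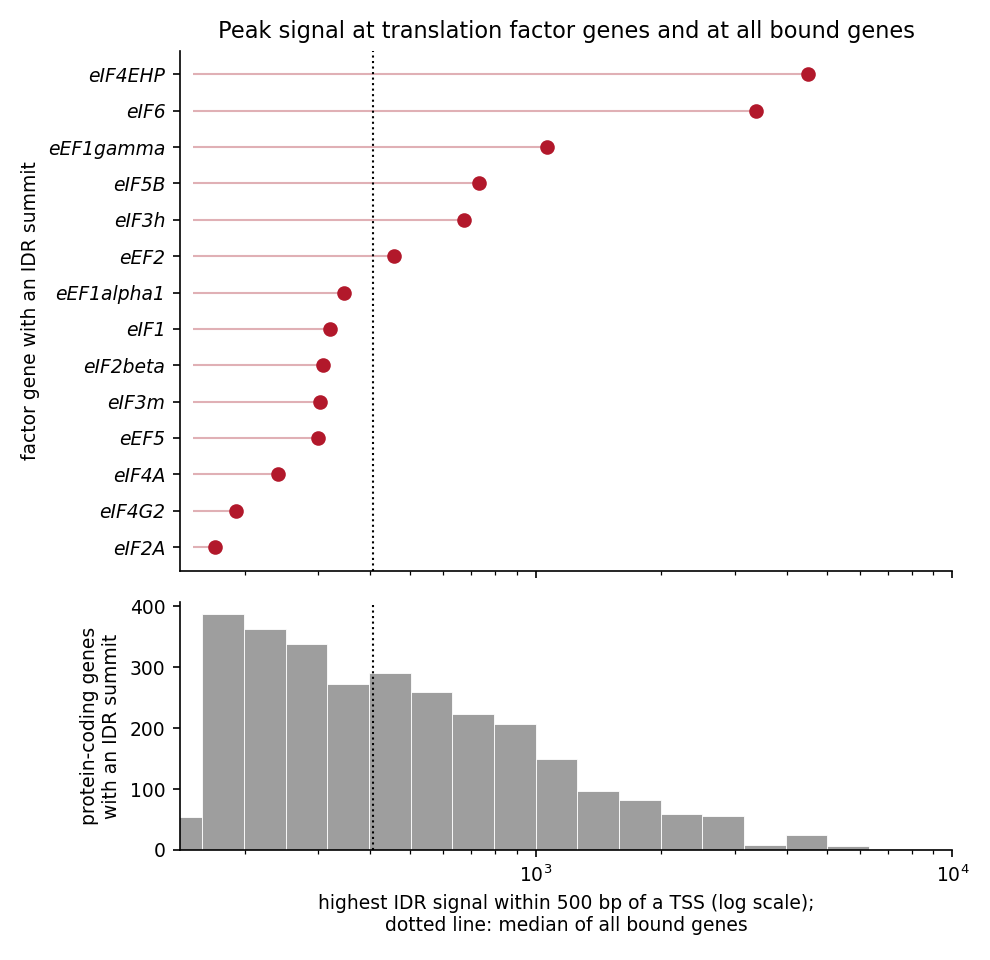
Highest IDR signal within 500 bp of a TSS (x axis, log scale) for the 14 bound translation factor genes (points, upper panel) and its distribution over the 2876 bound protein-coding genes (bars, lower panel); the dotted line is the median of all bound genes, 408. eIF4EHP and eIF6 stand at 4499 and 3383, and 8 of the 14 lie left of the line.

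In strength the bound factor genes ranged from 170 to 4499, with a median of 333, against a median of 408 for all bound protein-coding genes. Above that median were 6 of the 14: eIF4EHP, eIF6, eEF1gamma, eIF5B, eIF3h and eEF2. Above the upper quartile of all bound genes (760) were 3, and below the lower quartile (239) were 2, eIF4G2 and eIF2A. A run of 5 genes, in falling order eEF1alpha1, eIF1, eIF2beta, eIF3m and eEF5, lay between 346 and 301. Neighbours in that order could not be told apart, since the signals of 1 list carry no error.

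**Figure D3:**
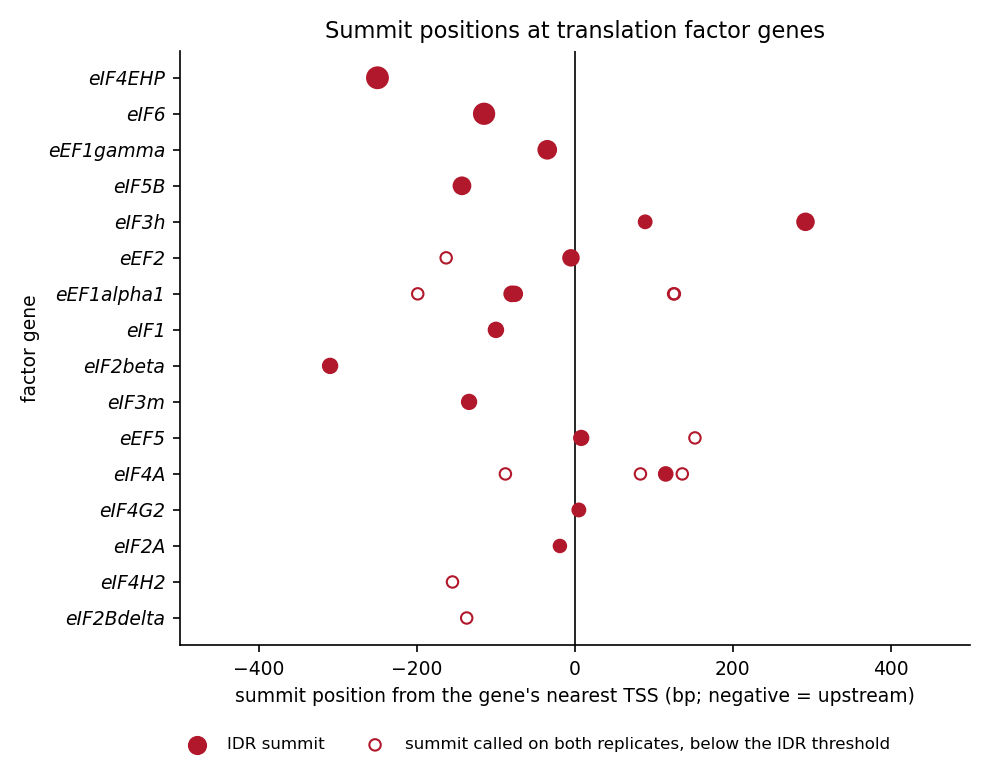
Position of each summit from the nearest TSS of its factor gene (x axis, bp, negative upstream), with genes in order of IDR signal from the top; filled points are IDR summits, larger for higher signal, and open points are pooled summits below the IDR threshold. Most IDR summits lie between 150 bp upstream and the TSS, and eIF3h, eIF4A, eEF5 and eIF4G2 have theirs downstream, that of eIF4A within 1 bp of counting as upstream of its next TSS.

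The 14 genes held 16 IDR summits. Of these, 11 lay upstream of the TSS (68.8%, interval 41.3 to 89.0%), against 77.5% of the 2557 summits at all protein-coding genes (interval 75.8 to 79.1%). Their median position was 55.5 bp upstream, against 123 bp upstream for all. Another protein-coding gene's TSS lay within 500 bp of 7 of the 16 (43.8%, interval 19.8 to 70.1%), against 28.8% for all (27.0 to 30.6%). Those summits were the ones at eIF4EHP, eIF3h (both), eIF1, eEF1alpha1 (1 of its 2), eIF3m and eIF4G2. At 2 genes, eIF4EHP and eIF3m, the other gene was the nearer one. In both measures the value for all genes lies inside the members' interval.

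Factor genes often face another gene. A start on the other strand lay within 1000 bp upstream of 26 of the 52 (50%), against 36.2% of all protein-coding genes. Among the bound factor genes 8 of 14 had such a partner (57.1%) and among the unbound 18 of 38 (47.4%). For all protein-coding genes these shares were 55.1% of bound and 31.3% of unbound ones. Partners were thus common in bound and unbound factor genes alike, and whether this differs from the genome was not tested. The number of annotated TSSs went with binding in both. Factor genes with 1 TSS were bound in 4 of 32 cases (12.5%) and those with 2 or more in 10 of 20 (50%), against 14.6% and 37.3% of all protein-coding genes. A gene with more TSSs also has more windows in which a summit can count, and the part of this in the result was not tested.

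**Figure D4:**
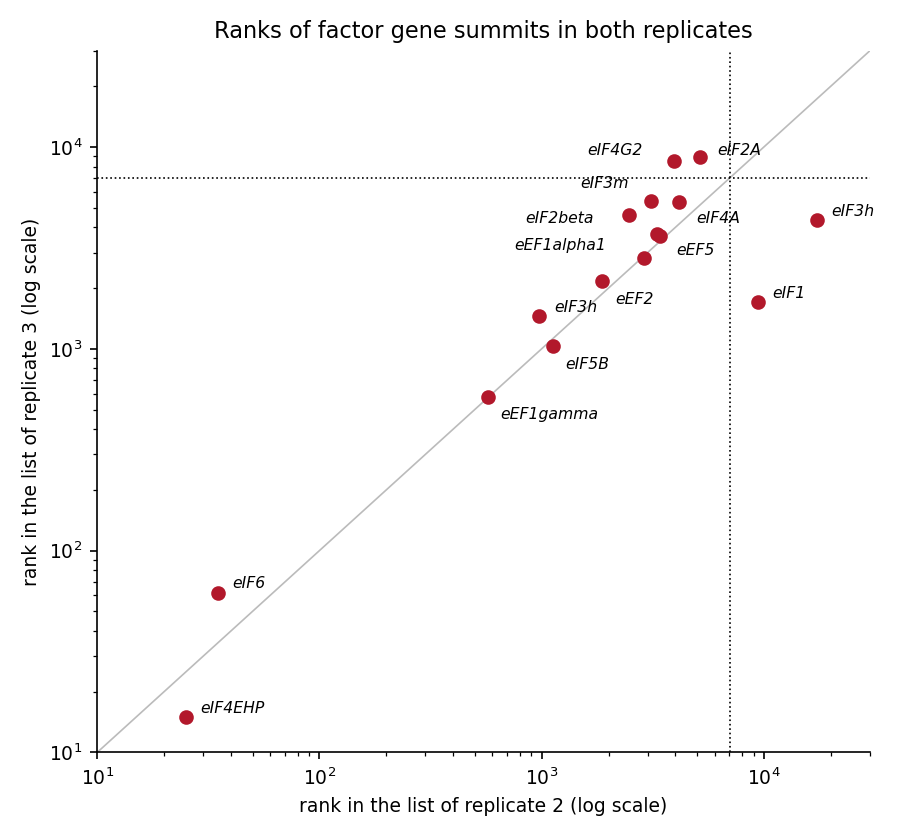
Rank of the peak matched to each of the 16 IDR summits of translation factor genes in the lists of replicate 2 (x axis, log scale) and replicate 3 (y axis, log scale); the solid line marks equal rank and the dotted lines rank 7029. eIF4G2 and eIF2A lie past rank 7029 in replicate 3, and eIF1 and the weaker eIF3h summit lie past it in replicate 2; 1 unlabelled point beside eEF5 is the second eEF1alpha1 summit.

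Each of the 16 summits had an overlapping peak in both replicate lists, as the making of the IDR list from those lists favours. The matched summits lay a median of 18 bp apart (1 to 79 bp). Their signals in the replicates had a Spearman rho of 0.741 and a Pearson r of log2 signals of 0.85 over these 16 points, of which pairs at 1 gene share a locus. In each replicate 14 of the 16 were among the 7029 strongest peaks. By that rule 12 factor genes were bound in both replicates, all of them also in the IDR list, and 15 in either. From replicate 3 alone eIF4G2 and eIF2A were not bound and eIF2D was, while replicate 2 alone gave the same 14 genes as the IDR list.

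**Figure D5:**
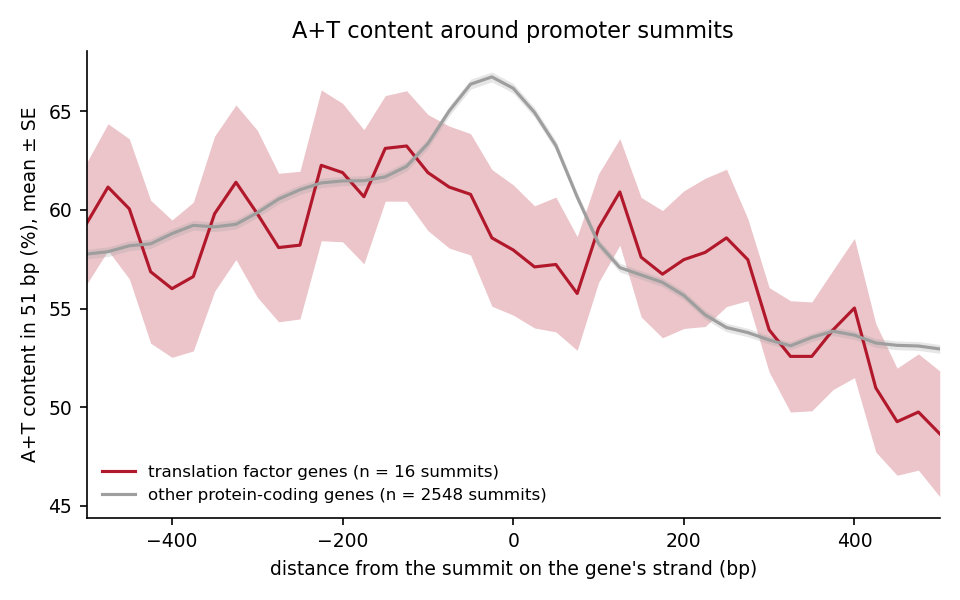
Mean A+T content in 51 bp (y axis, %) by distance from the summit (x axis, bp, on the strand of the gene) for the 16 IDR summits of translation factor genes and the 2548 of other protein-coding genes, 7 of which are the same summits; bands are SE over summits. The other genes peak near the summit at about 66%, and the factor genes have 58.0% there.

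The sequence under these summits was less A+T-rich than under most. Over 51 bp centred on the summit, A+T averaged 58.0 ± 13.2% at factor genes (SD, n = 16 summits), against 66.1 ± 12.3% at all protein-coding genes (n = 2557) and 67.0 ± 11.2% over all IDR summits. The median of all protein-coding genes was 68.6%, with 13 of the 16 below it and 3 above: eIF4EHP (90.2%), eIF6 (70.6%) and eIF1 (70.6%). The lowest values were those of eIF5B (35.3%), eEF2 (39.2%) and eIF4A (45.1%), whose summits lie in 5′ UTR sequence. The other summits in 5′ UTR sequence, of eEF5 (58.8%), eIF4G2 (58.8%) and eIF2A (56.9%), lay near the mean of the factor genes. At 500 bp downstream the means were 48.7% and 53.0% for factor genes and other protein-coding genes, and at 500 bp upstream they were 59.3% and 57.8%. The mean of the factor genes at the summit, 58.0%, was thus above that 500 bp downstream and close to that 500 bp upstream. Its highest value was 63.2%, 125 bp upstream of the summit. The peak near the summit seen at other genes was not visible in this mean, whose band is wide. No test was run, and without the eIF4EHP summit, left out after its value was seen, the mean was 55.8%.

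Words of known promoter elements were counted on both strands within 100 bp of each summit, and a match says only that the letters are there. The DRE word TATCGATA occurred at 2 of 16 factor gene summits, those of eEF1gamma and eIF2A (12.5%, against 4.77% of 2557 summits at all protein-coding genes). The TATA word TATAAA occurred at 3, those of eIF4EHP, eIF6 and eIF1 (18.8%, against 38.8%). The GAGA word GAGAG occurred at 2, those of eEF1alpha1 and eIF4A (12.5%, against 22.2%). The E-box CAGCTG (9.66% of all), the run AAAAAAAA (14.2%) and the word GGTCACACT of the motif-1 binding protein M1BP (2.31%) occurred at none of the 16. These are counts of 0 to 3 summits, too few to set apart from the shares of all genes. The 3 summits with TATAAA are the same 3 that lie above the median in A+T.

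The start sites themselves were read in 21 bp, from 10 bases before to 10 after each TSS, on the sense strand, for the letters TCTTT of the TCT initiator and TCAGT of the common initiator. TCTTT was present in 8 of the 52 factor genes (15.4%), against 3.38% of all protein-coding genes and 57.6% of the 92 cytoplasmic ribosomal protein genes. The 8 were eIF3i, eIF4A, eEF2, eIF3m, eEF5, eIF3d1, eEF1alpha2 and eIF3g1. Of these, 4 were bound, eIF4A, eEF2, eIF3m and eEF5 (50%), against 10 of the 44 without the word (22.7%). For all protein-coding genes the shares were 34.1% with and 20.2% without it. TCAGT was present in 2 factor genes, eIF2gamma and eEF1alpha2 (3.85%, against 16.6%), neither of them bound. Starts with TCTTT are shown for a pair of bound and a pair of unbound genes, with the word in capitals and the annotated TSS as the base in the middle. They are eIF4A at chr2L:5981754-5981774 on the plus strand, eEF2 at chr2L:21682106-21682126 on the minus strand, eIF3i at chr2L:4967765-4967785 on the minus strand and eIF3g1 at chrX:2610326-2610346 on the minus strand, from the same genome.
eIF4A: gcaagatggagccTCTTTtgc
eEF2: tgcagcgcctcgcTCTTTcct
eIF3i: cacggtcacactgcTCTTTtg
eIF3g1: cgcggcagggtaacacTCTTT
In all 4 the word begins after the annotated TSS, at 3 bases in eIF4A and eEF2, 4 in eIF3i and 6 in eIF3g1. In eIF3d1 it begins 9 bases before the TSS. A match shows the letters within the 21 bp and not that transcription starts at them. The IDR summit of eEF2 lies 5 bp upstream of this start, while that of eIF4A lies at another of its starts, so the word and the summit share a start in 1 of these 2.

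Away from their starts, a pair of long factor genes held further peaks. eIF5B spans 32320 bp and had 7 IDR summits in its introns more than 500 bp from its TSSs, with signals of 170 to 958. The strongest lay on 3L (3432686 to 3433012, rank 701), 27764 bp into the gene, and exceeded the peak at the eIF5B start. Its nearest protein-coding TSS was that of the gene sty, as it was for the summits with signals of 540, 376 and 170. The summits of 391, 239 and 173 had a start of eIF5B as the nearest. eIF4EHP spans 45884 bp and had 9, with signals of 162 to 699, the strongest on 3R (24099036 to 24099320, rank 1116) in an intron 9785 bp into the gene. Of these 9, the summits with signals of 265 and 227 lay in the 3′ and 5′ UTR of Syx1A, a syntaxin gene that lies within eIF4EHP. That of 227 lay 127 bp downstream of the Syx1A start. None of the 9 had a start of eIF4EHP as its nearest protein-coding TSS, which was that of Syx1A or SMC1. No other factor gene had an IDR summit inside it more than 500 bp from a TSS.

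Genes that work beside the factors were counted from 3 lists, every matched bound gene of which is named here. For release and recycling of ribosomes 4 of 5 genes were bound, beside 20.6% of all protein-coding genes. eRF3 had a signal of 831 at 116 bp upstream, eRF1 had 635 at 125 bp upstream, pelo had 355 at 77 bp upstream and HBS1 had 223 at 25 bp upstream. The recycling ATPase gene pix was not bound. The median of these 4 bound genes was 495, against 333 for the bound initiation and elongation factor genes, and the difference was not tested. Among the regulators 5 of the 18 genes matched were bound (27.8%, median 307). These were Thor, the 4E-BP that sequesters eIF4E (344), Lk6, the kinase of eIF4E (312), kra (307), the kinase gene S6k (185) and crc, the fly ATF4 (172). Pooled summits alone marked Paip2 (61.9) and the poly(A)-binding protein gene pAbp (39.0). The eIF2 kinase genes Gcn2 and PEK, and raptor, cup, 4E-T, mxt, PPP1R15, NAT1, bru1, Dhps and nero, had no pooled summit. Of the mitochondrial factors 2 of 9 matched genes were bound (22.2%), mEFTu1 (248) and mEFG1 (195), and mEFTs had a pooled summit only (88.5). The regulator and mitochondrial lists thus lie near the 20.6% of all protein-coding genes. The release and recycling list holds only 5 genes, picked by name, and its difference from that share was not tested.

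Peaks outside the window at the remaining factor genes were as follows. An IDR summit lay 769 bp upstream of eIF2Bdelta (signal 303, rank 3296) and 284 bp upstream of CG30414. One lay 1215 bp upstream of eEF1delta (169, rank 6394) and 400 bp downstream of the start of ova. Another lay 1395 bp downstream of the eEF1beta start (194, rank 5498) and 215 bp downstream of that of CG6426. With eIF2Bbeta, eIF3d1 and eIF3g1 these make 6 unbound factor genes with an IDR summit between 500 and 1500 bp from a TSS, and each of the 6 summits lay nearer to another gene.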

How the data were processed

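Chromatin was sheared by sonication to 200 to 800 bp and the assembly was dm6, per the labels. The authors deposited 4 narrowPeak lists: 1 per replicate and 1 from both replicates together, each of 30000 peaks, and 1 of 7029 peaks past an IDR threshold. The sources used here do not give the aligner, the caller or its settings. The deposited signal per peak is the authors' value and ranks peaks only within a list. The deposited -log10 q-value was 4.20 for every IDR peak and fell to 0.344 in the pooled list. The deposited summit offset, in bp, runs from 1 up to the peak width, which leaves a doubt of 1 bp. No file holds read totals, so depth is unknown, and it can limit which genes have a peak.

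TSSs came from Ensembl release 115 (77 of the factor genes, 19607 of all protein-coding genes) and bases from the RefSeq genome of the same assembly. Peaks of 2 lists were matched by an overlap of at least 1 bp and the nearest summit. A gene took its highest signal, and distances are signed by strand. Every factor gene is named, with the genes that share its summit and the bound genes of the pathway lists. The members, gene lists and words were chosen with earlier results of these data known. With 1 group no test between groups was possible, and no p-value was computed. Counting was tested on simulated peaks. Settings varied were the window, list length, TSS choice, number of genes per peak and replicates. Python 3.11.15, numpy 2.4.6, pandas 2.3.3, scipy 1.17.1 and matplotlib 3.10.9 were used.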

Additional observations from a re-analysis of the deposited data

How the results depend on the processing

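The numbers of bound factor genes, in the IDR and in the pooled list, stayed within 1.5 times their values under every alternative run. The share of summits near another gene moved most, from 43.8% of 16 summits to 66.7% of 18 within 1000 bp and to 30.8% of 13 within 200 bp. The number of bound factor genes was 12 within 200 bp (14.0% of all protein-coding genes), losing eIF2beta and eIF4EHP, and 16 within 1000 bp (24.4%), gaining eIF2Bbeta and eIF2Bdelta. It was 11 in the 3514 strongest IDR peaks (13.3%), losing eIF2A, eIF4A and eIF4G2, 12 with 1 gene per peak (16.4%), losing eIF3m and eIF4EHP, and 13 with only the most upstream TSS (18.2%), losing eIF4A. With 1 replicate left out it was 13 to 14, the share of summits upstream 76.5 to 80.0%, the share near another gene 40.0 to 47.1% and the A+T content 56.9 to 60.2%. Over all settings the share upstream, 68.8% of 16 summits in the main one, had a wider range. It was 53.8% of 13 with only the most upstream TSS and 83.3% of 12 in the 3514 strongest IDR peaks. Depth is unknown, so an unbound gene is only one without a listed peak. No paired analysis was possible because the series holds 1 group.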
